A study of Mus musculus with 11 samples.

Results

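The genes that mark the blood vessels of the brain were followed in hippocampal RNA-seq of 11 mice. The Ensembl identifiers of the count tables were matched to GENCODE gene symbols, and 34 genes were taken by name from the 38293 genes counted, namely 25 endothelial genes, 6 pericyte genes and 3 smooth muscle genes. All 34 were found, and all 34 reached 10 counts summed over the libraries, the minimum for a test. The mice were wildtype F1 offspring of a 129S6/SvEv x C57BL/6J cross at 14 weeks of age. The dams of the CD F1 mice had eaten a control diet with 2.3 mg folic acid per kg before conception (n = 6, 3 males and 3 females), and the dams of the FD F1 mice had eaten 40 mg folic acid per kg (n = 5, 2 males and 3 females). From mating on, both groups of dams received the control diet. The groups also differ in their share of males, and the labels give each mouse as a separate animal but not its litter.

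Brain capillaries are lined by endothelial cells whose tight junctions and transporters form the blood-brain barrier. Pericytes wrap the capillaries and share their basement membrane, while arteries and arterioles carry a coat of contractile smooth muscle, and both mural cell types are recruited by signals from the endothelium. In a bulk library of hippocampus, these cells are a minority among neurons and glia. Fewer vascular cells and less RNA per vascular cell cannot be told apart in such data.

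Between 11737554 and 44447006 reads per mouse were counted on genes. Counts are given as CPM, a gene's share of the counted reads of a mouse after TMM scaling, which compares 1 gene between mice, and as TPM, which also divides by exon length and compares genes within a mouse. The lowest count of any vascular gene was 14 reads, for Higd1b in the CD group. Neuronal genes summed to between 6615 and 7458 CPM, and genes of hippocampal principal cells summed to between 768.4 and 895.6 CPM, so the labelled tissue carried its markers in every mouse. The level of Xist against Ddx3y fitted the labelled sex in 11 of 11 mice.

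Per length, the vascular genes covered a wide range of levels. Bsg, which encodes basigin, a surface protein of barrier endothelium that neurons and glia also make, had by far the highest level, with 774.5 ± 40.5 TPM (SD, n = 11). Itm2a, a membrane protein gene of brain endothelium, followed at 133.8 ± 20.2 TPM and Vtn, which encodes the pericyte product vitronectin, at 121.8 ± 26.5 TPM, and these neighbours did not differ beyond their spread. The glucose transporter gene Slc2a1 (85.8 ± 7.26 TPM) and the pericyte gene Rgs5, a regulator of G-protein signalling (85.0 ± 11.1 TPM), were next and likewise overlapped. Cldn5, the main claudin of the tight junction, stood at 64.3 ± 13.6 TPM and Acta2, smooth muscle actin, at 26.45 ± 11.7 TPM. The lowest level was that of the endothelial transcription factor gene Sox17, with 2.56 ± 0.561 TPM.

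The 3 smooth muscle genes varied most among the mice. Acta2 (ENSMUSG00000035783, chr19:34241090-34255590 of GRCm38, minus strand) encodes the actin of contractile vessel walls. In CD mice its lowest, median and highest levels were 8.39, 11.7 and 22.2 CPM. In FD mice it was at 16.5, 9.71, 16.6, 25.8 and 6.96 CPM (female 1, male 1, female 2, male 2 and female 3). FD male 2 was thus the highest and FD female 3 the lowest of all mice, and the groups overlapped over nearly their whole range. Acta2 averaged 13.1 ± 4.99 CPM (SD, n = 6) in CD and 15.1 ± 7.32 CPM (SD, n = 5) in FD mice, a log2 fold change of 0.19 ± 0.28 (SE).

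Acta2 is a known target of serum response factor, which binds the CArG box, and the stretches of its promoter that hold this element are shown because the smooth muscle genes varied most and Acta2 is the one of them that the promoter table covers. The 250 bases before the RefSeq start of Acta2 held no exact CArG box. They held 2 that differ from it at 1 base of the AT-rich core, from base -84 to -75 and from -34 to -25 before the start, at chr19:34255438-34255467 and chr19:34255388-34255417 (GRCm38.p6, minus strand, 30 bases each, 5′ to 3′, capitals mark the element). The GENCODE gene given above starts further upstream than the RefSeq start, so both stretches lie inside its first part.
Acta2 distal element: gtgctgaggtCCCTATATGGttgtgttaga
Acta2 proximal element: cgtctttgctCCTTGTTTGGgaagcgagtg
With the same tolerance, which is the same on both strands, 8.65% of 27025 promoters held such an element (1 promoter a gene), and so did 5 of the 22 vascular genes that the RefSeq table covers. A match in letters is a description, and binding was not measured here.

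Tagln (chr9:45929619-45936058), which encodes the actin-binding protein transgelin, and Myh11 (chr16:14194535-14291372), the smooth muscle myosin heavy chain, had the same order of mice at the top and the bottom. Tagln had a lowest, median and highest level of 5.59, 6.94 and 12.9 CPM in CD mice. In FD mice, in the order given for Acta2, Tagln stood at 9.16, 5.90, 11.4, 19.0 and 4.60 CPM. Myh11 ranged from 5.75 over a median of 10.96 to 19.1 CPM in CD mice, and was at 14.3, 9.28, 15.7, 27.3 and 4.97 CPM in FD mice. For both genes, FD male 2 was highest and FD female 3 lowest, and CD male 2 was the highest of the CD mice. The fitted log2 fold change between FD and CD was 0.34 ± 0.29 for Tagln and 0.37 ± 0.34 for Myh11, each about as large as its own standard error. From the lowest to the highest mouse, the level rose 3.71-fold for Acta2, 4.14-fold for Tagln and 5.49-fold for Myh11. Among 14437 genes that averaged 1 CPM or more, 0.637%, 0.547% and 0.346% had a larger SD of log2 CPM than Acta2, Tagln and Myh11. Without FD male 2, the log2 fold change was -0.07 for Acta2, -0.004 for Tagln and 0.02 for Myh11, and without CD male 2 it was 0.42, 0.55 and 0.62.

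**Figure D1:**
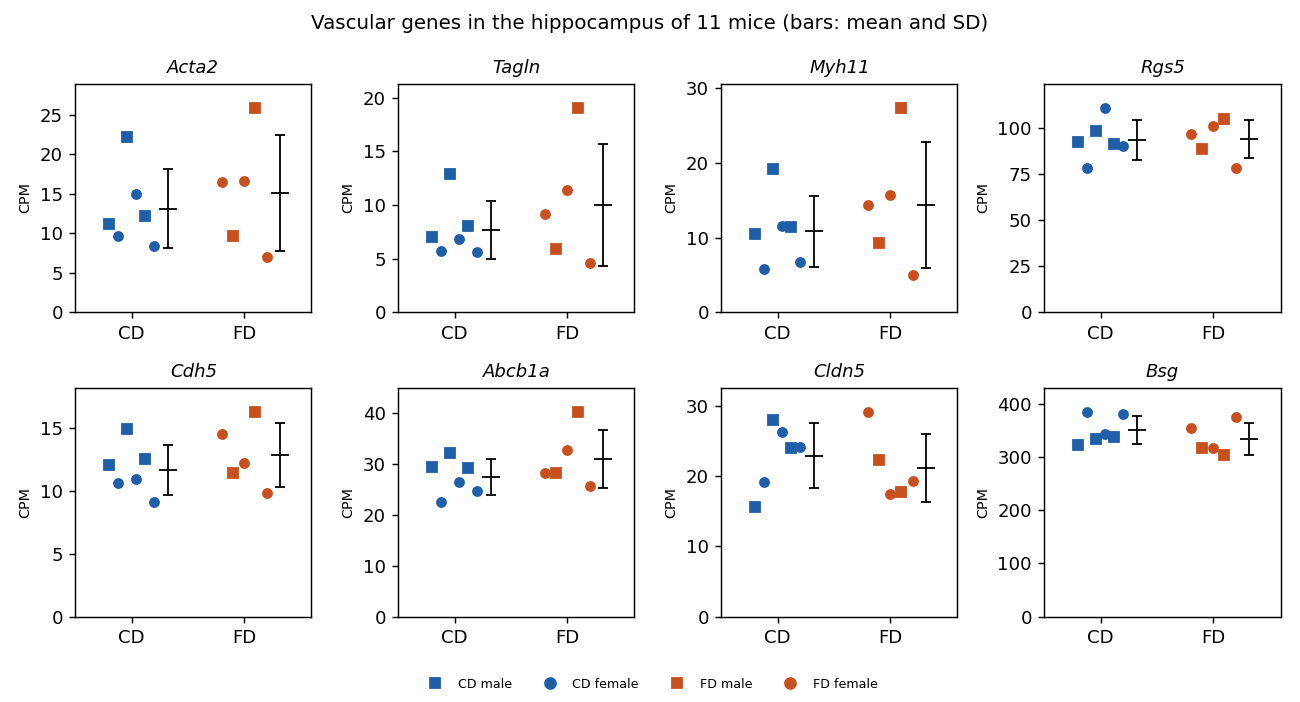
Level of 8 vascular genes in each mouse (y axes: TMM-scaled CPM, from 0) by maternal diet (x axes), with squares for males, circles for females and bars for the mean ± SD of each group. The CD and FD mice overlap for each gene, and the smooth muscle genes Acta2, Tagln and Myh11 spread over 3.71 to 5.49-fold while Bsg spreads over 1.27-fold.

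The pericyte genes were steadier. Rgs5 lay between 78.3 and 110.8 CPM in CD mice and between 78.6 and 104.7 CPM in FD mice, a log2 fold change of 0.01 ± 0.08. Pdgfrb, the receptor by which endothelial PDGF-B recruits pericytes, averaged 24.7 ± 2.82 CPM in CD and 26.8 ± 2.58 CPM in FD mice (log2 fold change 0.12 ± 0.08). Anpep, an aminopeptidase of the pericyte surface that perivascular fibroblasts also carry, had the largest fitted difference of the 6, with 2.88 ± 0.522 against 3.573 ± 1.123 CPM (log2 fold change 0.29 ± 0.18). Vtn reached 87.7 CPM in FD male 2 and lay between 45.3 and 69.0 CPM in the other mice, with a log2 fold change of 0.11 ± 0.14. The channel subunit gene Abcc9 (0.07 ± 0.11) and Higd1b (0.08 ± 0.17) completed the class. All 6 fitted log2 fold changes were above 0, and each gene had FD mice on both sides of the CD median.

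Of the 12 junction, surface and secreted endothelial genes, 7 had a fitted log2 fold change above 0 and 5 below. Pecam1, an adhesion molecule of endothelial contacts, had the smallest p of the class, with 17.8 ± 1.83 CPM in CD and 19.7 ± 3.05 CPM in FD mice (log2 fold change 0.14 ± 0.10, edgeR's unadjusted p = 0.167). Esam, another adhesion molecule, followed with 13.0 ± 1.86 against 13.85 ± 0.902 CPM (0.11 ± 0.09). Itm2a lay within 53.5 to 56.3 CPM in the 6 CD mice and within 50.2 to 77.1 CPM in the FD mice, where male 2 was highest (0.10 ± 0.09). Cldn5 went slightly the other way, with 22.9 ± 4.63 CPM in CD and 21.2 ± 4.83 CPM in FD mice (-0.08 ± 0.15). Vwf, von Willebrand factor, ranged over 2.67-fold among the mice (0.21 ± 0.20), and Emcn, the sialomucin of veins and capillaries, over 1.26-fold (-0.03 ± 0.09). Cdh5 (0.13 ± 0.13), Robo4 (0.03 ± 0.11), Eng (0.02 ± 0.09) and Egfl7 (-0.07 ± 0.10) overlapped between the groups as well, as did Ly6c1 (-0.07 ± 0.10) and Ly6a (-0.03 ± 0.08). Ly6a and Ly6c1 belong to a family of related genes, so their counts of uniquely aligned reads are uncertain.

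The 4 receptor tyrosine kinases, the VEGF receptors Flt1 and Kdr, the angiopoietin receptor Tek and its partner Tie1, each had a fitted log2 fold change above 0, from 0.07 for Tek to 0.14 for Tie1. Flt1 (chr5:147561604-147726011, minus strand) lay between 45.0 and 72.6 CPM in CD and between 52.9 and 76.5 CPM in FD mice. Tie1 lay between 9.80 and 12.3 CPM in CD and between 8.05 and 14.4 CPM in FD mice, and Kdr between 12.2 and 17.3 and between 13.4 and 19.2 CPM. Among the transcription factors, Erg, an ETS factor that maintains endothelial identity, had 4.32 ± 0.208 against 4.77 ± 0.815 CPM (0.14 ± 0.11). Sox18 (0.10 ± 0.16) and Sox17 (-0.09 ± 0.17), factors of arterial and developing endothelium, were expressed at about 3 CPM in both groups.

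The promoters of Flt1 and Cldn5 (chr16:18776847-18778262) are shown because these genes, both taken as endothelial markers, differed in how they moved with the smooth muscle genes. ETS factors such as Erg recognise a GGAA core, and AGGAAG was searched on both strands in the 250 bases before the start, at chr5:147726012-147726261 (minus strand) for Flt1 and chr16:18776597-18776846 (plus strand) for Cldn5 (GRCm38.p6, from RefSeq, 5′ to 3′, capitals mark AGGAAG).
Flt1: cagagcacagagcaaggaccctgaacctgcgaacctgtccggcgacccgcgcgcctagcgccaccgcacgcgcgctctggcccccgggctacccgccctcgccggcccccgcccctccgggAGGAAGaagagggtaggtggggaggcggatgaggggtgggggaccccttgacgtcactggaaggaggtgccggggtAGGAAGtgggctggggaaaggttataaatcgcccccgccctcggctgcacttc
Cldn5: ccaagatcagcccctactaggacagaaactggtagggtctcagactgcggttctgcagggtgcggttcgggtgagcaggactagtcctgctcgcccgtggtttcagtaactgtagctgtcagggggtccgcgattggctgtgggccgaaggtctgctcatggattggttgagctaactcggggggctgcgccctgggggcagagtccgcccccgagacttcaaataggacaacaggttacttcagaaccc
The Flt1 window held 2 matches, from -129 to -124 and from -53 to -48, and the Cldn5 window held none of these letters. The motif was present in 29.2% of the 27025 promoters and in 10 of the 22 vascular promoters that the table covers. How these 10 fall among genes that did and did not move with the smooth muscle genes was not counted. A link between the motif and that difference was not tested.

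The 6 barrier transport genes were among the more abundant members. Abcb1a (chr5:8660077-8748575), the P-glycoprotein efflux pump, lay between 22.5 and 32.1 CPM in CD mice and between 25.7 and 40.2 CPM in FD mice, where male 2 was highest, with 27.4 ± 3.52 CPM in CD and 31.0 ± 5.72 CPM in FD mice (log2 fold change 0.17 ± 0.11, edgeR's unadjusted p = 0.143). It has a close copy, Abcb1b, so some of its reads may not have been counted. Slco1c1, a thyroid hormone transporter that astrocytes also express, had the steadiest level of all vascular genes, between 65.0 and 72.2 CPM in CD and between 69.4 and 77.3 CPM in FD mice (0.07 ± 0.05). The organic anion transporter gene Slco1a4 stood at 44.7 ± 5.42 against 49.3 ± 8.04 CPM (0.14 ± 0.10). Slc2a1 (0.08 ± 0.06) and the lysophospholipid transporter gene Mfsd2a (0.01 ± 0.08) were close between the groups, and Bsg was at 350.2 ± 26.0 in CD and 333.1 ± 30.1 CPM in FD mice (-0.07 ± 0.06).

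In the test of FD against CD across all 20589 genes, none of the 34 vascular genes passed the threshold (edgeR's quasi-likelihood test, Benjamini-Hochberg adjusted p of 1.0 for each), beside 14 genes or 0.068% of all genes tested. At an unadjusted p under 0.05, edgeR and DESeq2 each also gave 0 of 34, where 2.59% of all genes tested passed in edgeR. In no vascular gene did the 2 groups fail to overlap, which 0.505% of all genes did. The fitted log2 fold change was above 0 for 27 of the 34 genes (79.4%, beside 48.2% of all genes tested), with a median of 0.09 beside -0.004. The class medians were 0.08 for the endothelial, 0.10 for the pericyte and 0.34 for the smooth muscle genes, and without FD male 2 the last was -0.004. With sex as a covariate and all 11 mice, the class medians were 0.08, 0.11 and 0.43 in the same order. Genes of 1 cell type rise and fall together among mice, so these signs are not 34 separate observations.

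Summed over its 25 genes, the endothelial level was 912.9 ± 21.6 CPM (SD, n = 6) in CD and 927.0 ± 48.9 CPM (SD, n = 5) in FD mice. The pericyte sum was 189.0 ± 14.4 against 197.5 ± 29.8 CPM, and the smooth muscle sum 31.6 ± 12.3 against 39.4 ± 21.4 CPM. Each difference was smaller than the SD of the FD group. Bsg alone made up 37.2% of the endothelial sum, and without it the sum was 562.7 ± 27.0 against 594.0 ± 56.4 CPM, a choice made after the data were seen. Among the 11 mice, the endothelial sum spread over 1.13-fold with Bsg and 1.27-fold without it, that of the junction, surface and secreted genes over 1.29-fold, that of the receptor kinases over 1.56-fold and the smooth muscle sum over 4.37-fold.

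**Figure D2:**
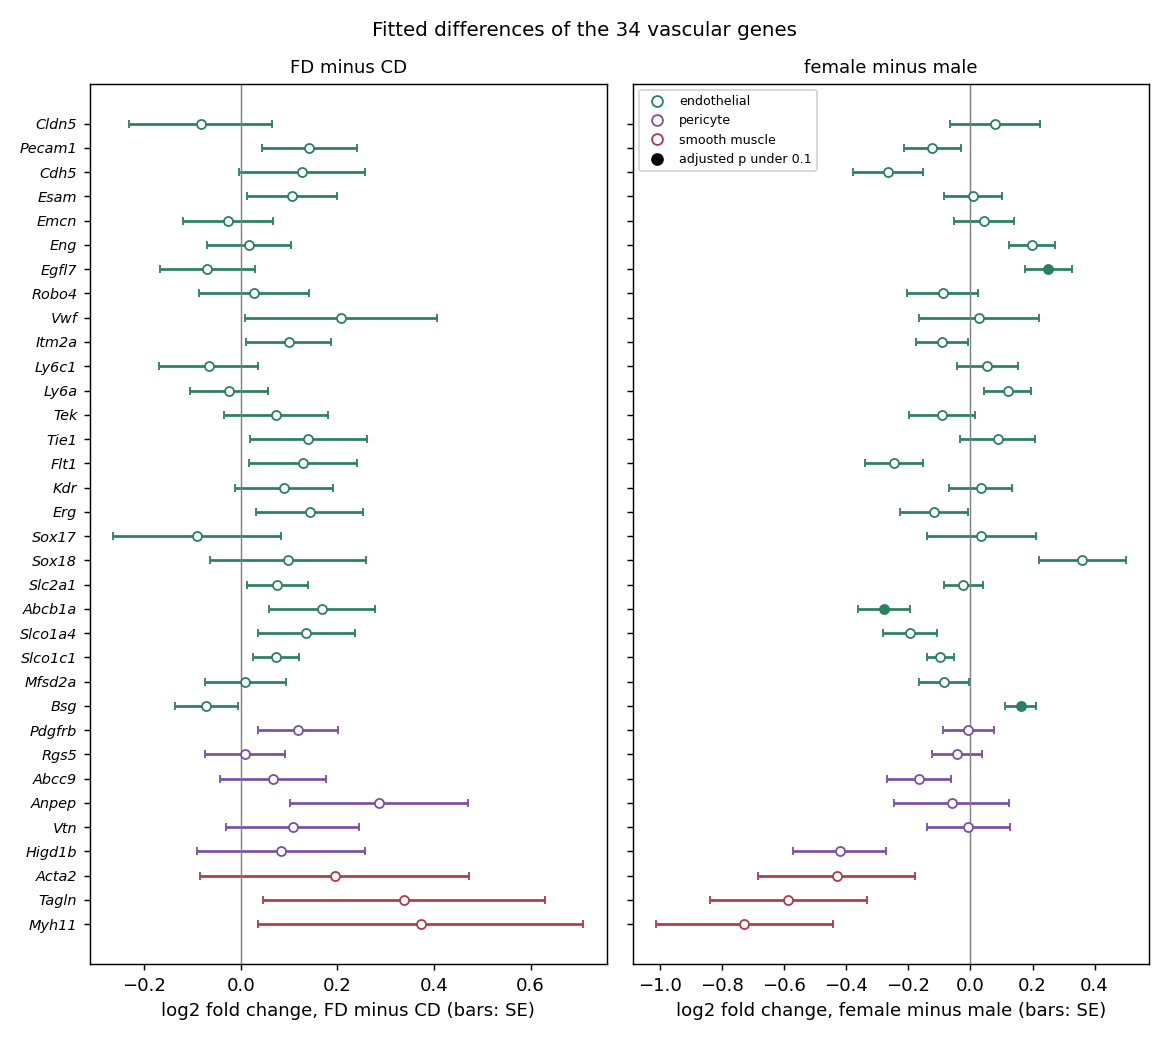
Fitted log2 fold change of each of the 34 genes (y axis) between FD and CD mice (left) and between female and male mice (right), with bars for 1 SE, colours for the cell class and filled points for an adjusted p under 0.1. On the left, 27 points lie above 0 and none is filled, and on the right Egfl7, Abcb1a and Bsg are filled.

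With mice of the same sex and replicate number as a block, which drops CD male 3 since it has no partner, the count over all genes was 25 in place of 14, and again none of the vascular genes was among them. At an unadjusted p under 0.05, 5 of the 34 passed (edgeR with the replicate block). Beside them stand 6.78% of all genes and 7.38% of those that averaged 1 CPM or more. All 5 were higher in FD mice, as were 4.13% of all genes at that p, a share picked by the direction seen. Over the 11 mice, r of log2 CPM among the 5 ran from 0.745 (Flt1 and Tagln) to 0.959 (Tagln and Myh11), so they are not separate observations. They were Abcb1a (log2 fold change 0.19, adjusted p = 0.557), Myh11 (0.40, adjusted p = 0.596), Tagln (0.33, adjusted p = 0.624), Flt1 (0.18, adjusted p = 0.677) and Pecam1 (0.16, adjusted p = 0.728). Tagln and Myh11 were higher in the FD mouse in 3 of 5 pairs and the other 3 genes in 4 of 5. Slco1c1 was higher in the FD mouse in 5 of 5 pairs and Bsg lower in 5 of 5 (unadjusted p = 0.0905 and 0.0715 in edgeR with the replicate block). These genes were picked from the 34 after their values were seen, and the share of all genes with 1 sign in 5 of 5 pairs was not counted. For Slco1c1, the females of replicate 2 were nearly equal, at 69.44 CPM (FD) and 69.38 CPM (CD).

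None of the genes in 6 further vascular lists passed the threshold between FD and CD, with or without the block. In the list of VEGF, angiopoietin and Notch signalling, 15 of 19 genes had a log2 fold change above 0, and those with the smallest p were Hey1, a Notch target (-0.13 ± 0.07), and Ptprb, the phosphatase that acts on Tek (0.26 ± 0.16). For mural cell recruitment and identity, these were Foxf2, a pericyte transcription factor (0.24 ± 0.11), and Pdgfb, the endothelial ligand of Pdgfrb (-0.11 ± 0.06), with 9 of 14 genes above 0. For Wnt barrier signalling and further barrier genes, 11 of 18 were above 0, led by Ahnak (0.31 ± 0.18) and the efflux pump gene Abcg2 (0.14 ± 0.10). All 8 basement membrane genes were above 0, with a median of 0.06, led by nidogen Nid1 (0.36 ± 0.19) and perlecan Hspg2 (0.23 ± 0.15). Of the further contractile genes, 9 of 14 were above 0, led by Mustn1 (0.66 ± 0.28) and Synpo2 (0.17 ± 0.10). Of the arterial and venous endothelial genes, 7 of 11 were above 0, led by the venous factor Nr2f2 and the adhesion molecule Vcam1 (0.12 ± 0.07 and 0.14 ± 0.09).

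The smooth muscle genes moved together from mouse to mouse. Over the 11 mice, Pearson's r of log2 CPM was 0.965 for Acta2 and Myh11, 0.959 for Tagln and Myh11 and 0.953 for Acta2 and Tagln (two-sided permutation tests, p = 2e-05, 1e-05 and 1e-05, of which 1e-05 is the smallest that 100000 resamples can give, and adjusted p = 8e-05, 6e-05 and 6e-05 over the 12 pairs tested). Spearman's rho was 0.991, 0.964 and 0.973 (permutation p = 1e-05, 1e-05 and 2e-05). Without CD male 2 and FD male 2, the mice farthest from the median, r was still 0.932, 0.925 and 0.909. Within the 6 CD mice it was 0.926, 0.931 and 0.917, and within the 6 females 0.966, 0.946 and 0.913.

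The 3 pericyte pairs were less tied. Rgs5 and Abcc9 had r = 0.656 (permutation p = 0.0284, adjusted p = 0.0568) and rho = 0.736 (permutation p = 0.0127, adjusted p = 0.0306). Without CD females 1 and 2, the mice farthest from the median, r fell to 0.412, so its size depends on those mice. Within the 6 CD mice r was 0.712 and within the 6 females 0.703, and both sets hold CD females 1 and 2. Pdgfrb and Abcc9 had r = 0.368 and rho = 0.445 (permutation p = 0.268 and 0.172), and Rgs5 and Higd1b r = -0.0028 and rho = -0.0273 (permutation p = 0.993 and 0.945). Rgs5 and Acta2, from the pericyte and the smooth muscle list, had r = 0.790 and rho = 0.845 (permutation p = 0.00374 and 0.00201, adjusted p = 0.00967 and 0.00603), with r = 0.916 without CD females 1 and 2. The 4 pairs with Cldn5 did not pass, and r was 0.055 with Pecam1, 0.103 with Cdh5, 0.234 with Rgs5 and 0.159 with Acta2 (permutation p from 0.484 to 0.872), with rho from 0.0636 to 0.118 (permutation p from 0.734 to 0.86). Flt1 and Tek had r = 0.782 and rho = 0.682 (permutation p = 0.00403 and 0.0255, adjusted p = 0.00967 and 0.051). Without CD female 1 and FD female 3, the mice farthest from the median, r fell to 0.441, so its size depends on those mice. Within the 6 CD mice, which hold CD female 1, r was 0.801. Within the 6 females, which hold both, it was 0.912.

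**Figure D3:**
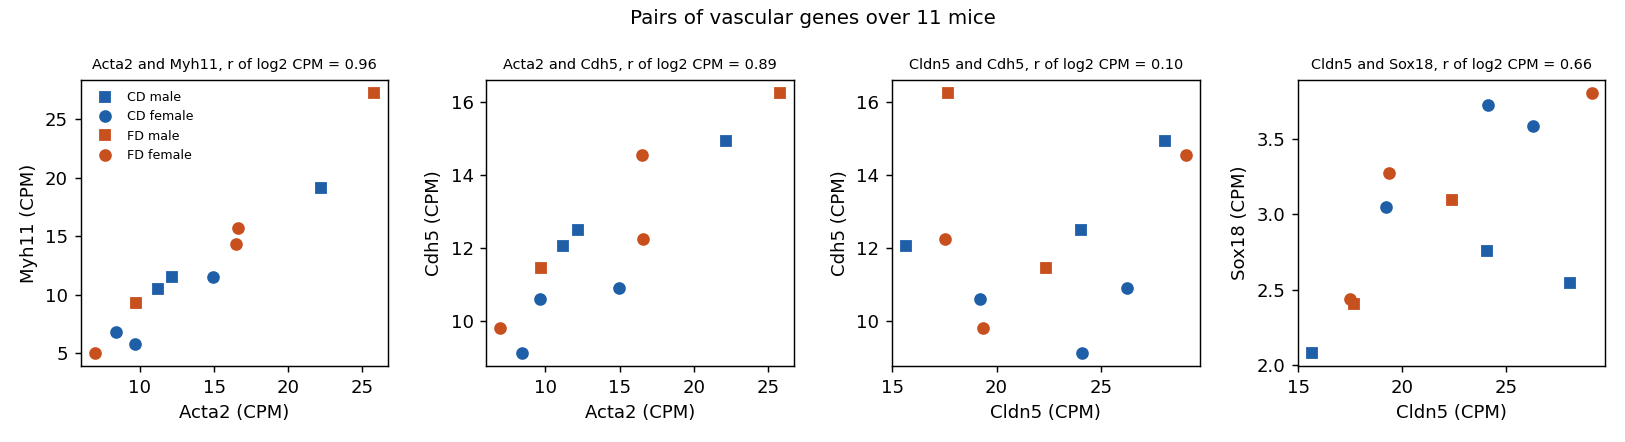
Level of 4 pairs of vascular genes in each mouse (both axes: CPM), with squares for males, circles for females, blue for CD and orange for FD. Acta2 rises with Myh11 (r = 0.965) and with the endothelial cadherin gene Cdh5 (r = 0.894), whereas Cldn5 has r = 0.103 with Cdh5 and r = 0.659 with Sox18.

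The endothelial genes differed in how they moved with the mural genes. Set beside the smooth muscle score, the mean of the centred log2 CPM of Acta2, Tagln and Myh11, 9 of the 25 endothelial genes had r of at least 0.7, 11 had r between 0 and 0.7, and 5 had r of 0 or below (all these r are over the same 11 libraries and are given without a test). The 9 were Cdh5 (0.909), which encodes VE-cadherin, Pecam1 (0.901), Abcb1a (0.887), Flt1 (0.822), Slco1a4 (0.801), Itm2a (0.792), Tek (0.776), Vwf (0.722) and Erg (0.706). The 5 were Bsg (-0.715), Sox18 (-0.458), Egfl7 (-0.430), Mfsd2a (-0.213) and Emcn (-0.0375). Neurons and glia also make Bsg, so its r is not a measure of endothelium alone. The median GC content of the longest transcript was 50.2% for the 9 genes and 57.0% for the 5. The ranges overlapped, from 40.3 to 56.5% for the 9 and from 40.7 to 60.9% for the 5. The part of GC content in this split was not tested. Cldn5 (0.0772) and the TGF-beta co-receptor gene Eng (0.0577) stood near 0. Cldn5 went instead with Sox18 (r = 0.659), Kdr (0.646), Egfl7 (0.644) and Robo4 (0.617), and against Mfsd2a (-0.766). The highest r outside the smooth muscle genes was that of Cdh5 and Pecam1 (0.956), followed by Vtn and Vwf (0.922), a pericyte and an endothelial gene. Across the 300 endothelial pairs, r had a median of 0.23 and ran from -0.858, for Abcb1a and Bsg, to 0.956.

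**Figure D4:**
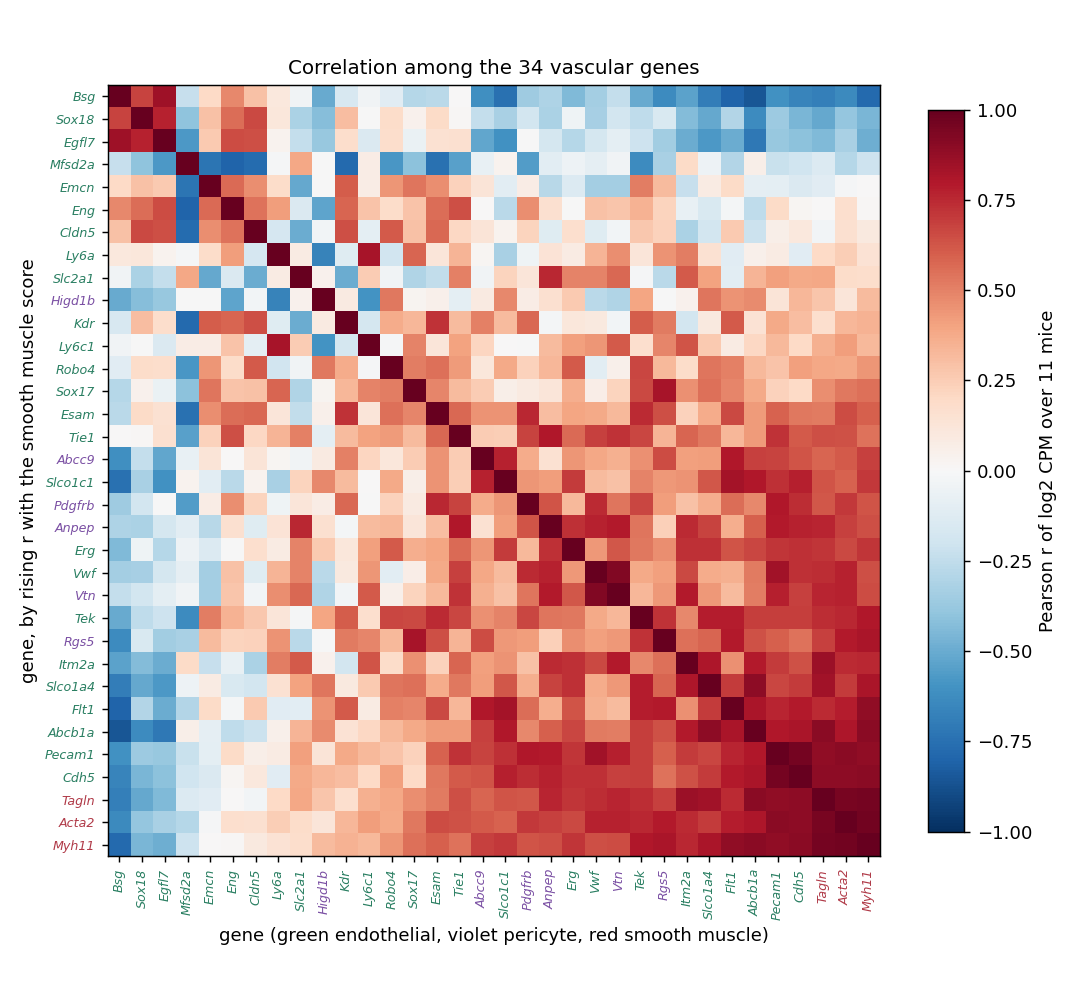
Pearson's r of log2 CPM over 11 mice for each pair of the 34 genes, ordered along both axes by rising r with the smooth muscle score, with red for r above 0 and blue for r below. The block at the lower right holds the smooth muscle genes with Cdh5, Pecam1, Abcb1a and Flt1, and Bsg, Sox18 and Egfl7 at the upper left run against it.

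Other tissue measures moved with the mural genes and less closely with the endothelial genes. The smooth muscle score had r = 0.724 with the log2 sum of 10 meningeal and perivascular fibroblast genes, r = 0.83 with that of 4 perivascular macrophage genes, and r = -0.918 and -0.891 with those of the neuronal and the hippocampal principal cell genes (11 mice, no test, and all are shares of the same libraries). In the same order, r was 0.785, 0.865, -0.856 and -0.815 for the pericyte score and 0.532, 0.635, -0.705 and -0.586 for the endothelial score, both made the same way. The fibroblast genes summed to between 92.9 and 232.7 CPM in CD and between 122.7 and 387.7 CPM in FD mice, highest in FD male 2, which was also highest in smooth muscle genes. The macrophage genes summed to between 2.93 and 7.10 and between 2.86 and 12.9 CPM. All 10 fibroblast genes had a log2 fold change above 0 between FD and CD, with a median of 0.37, led by osteoglycin Ogn (0.60 ± 0.21) and fibromodulin Fmod (0.94 ± 0.49), and in the replicate block Ogn passed the threshold (edgeR, adjusted p = 0.054). The smooth muscle score also had r = 0.690 with the share of aligned reads outside annotated genes and r = -0.768 with the share assigned to several genes. For the endothelial score these were 0.436 and -0.409. The part of tissue composition and of these library measures in the differences among mice was not tested.

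Of the other cell types between FD and CD, 8 of 10 choroid plexus genes were below 0, led by transthyretin Ttr (-1.19 ± 0.47) and Kcne2 (-1.64 ± 0.76), and Ttr and Clic6 passed in the replicate block (edgeR, adjusted p = 0.00137 and 0.0608). The choroid plexus sum lay between 36.1 and 91.1 CPM in CD and between 31.2 and 44.6 CPM in FD mice, Kcne2 and Tmem72 had no read in 2 mice each and Kcnj13 had none in 1. The 5 red cell genes were above 0, led by Hbb-bt (0.24 ± 0.31) and Hbb-bs (0.15 ± 0.24), which share reads with each other. Of the 4 macrophage genes, 3 were above 0 and 1 below, with a median of 0.37, led by Cd163 (0.47 ± 0.28) and Lyve1 (0.44 ± 0.30). The median log2 fold change was -0.001 for microglia (Csf1r -0.03 ± 0.06, P2ry12 0.03 ± 0.05), 0.04 for astrocytes (Aqp4 0.10 ± 0.05, Gja1 0.05 ± 0.05), -0.08 for oligodendrocytes (Mag -0.12 ± 0.14, Cnp -0.09 ± 0.11), -0.03 for neurons (Gad2 0.08 ± 0.05, Slc17a7 -0.07 ± 0.06) and -0.04 for hippocampal principal cells (Prox1 0.08 ± 0.07, C1ql2 -0.10 ± 0.10).

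Between the sexes, with maternal diet as a covariate, 3 of the 34 vascular genes passed the threshold (8.82%), beside 6.11% of all 20589 genes tested and 8.33% of the genes that averaged 1 CPM or more, as all 34 did. Their share of calls was thus near that of other genes of such levels. Egfl7 (chr2:26580014-26593120), a secreted regulator of vessel formation, was higher in females, with 25.0 ± 2.01 CPM (SD, n = 6) against 21.3 ± 2.61 CPM (SD, n = 5) in males (log2 fold change 0.25 ± 0.08, adjusted p = 0.092). Bsg (chr10:79704491-79711969) was higher in females as well, with 358.8 ± 26.4 against 322.7 ± 13.9 CPM (0.16 ± 0.05, adjusted p = 0.0939). Abcb1a was lower in females, with 26.7 ± 3.51 against 31.8 ± 4.89 CPM (-0.28 ± 0.08, adjusted p = 0.0906). For each of the 3, the ranges of females and males overlapped, as they did for all 34 genes, where 1.78% of all genes had no overlap. Next in order of p were Higd1b, at 1.63 ± 0.309 CPM in females and 2.11 ± 0.228 CPM in males (-0.42 ± 0.15, adjusted p = 0.126), and Eng, at 17.1 ± 1.31 and 14.99 ± 1.116 CPM (0.20 ± 0.07, adjusted p = 0.139).

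At an unadjusted p under 0.05 (edgeR), 4 vascular genes were higher and 8 lower in females, together 35.3% beside 20.3% of all genes and 26.0% of those that averaged 1 CPM or more. Tagln and Myh11 were among the lower ones, with log2 fold changes of -0.59 ± 0.25 and -0.73 ± 0.28 (adjusted p = 0.199 and 0.158), and Acta2 was at -0.43 ± 0.25 (adjusted p = 0.358). In the 6 further vascular lists, 4 of 19 signalling genes, 3 of 18 barrier genes, 1 of 11 arterial and venous genes and none of the 14 mural, 8 basement membrane and 14 contractile genes passed, beside the same 8.33%. Vegfa (-0.29 ± 0.08), Ocln (-0.23 ± 0.07), Tjp1 (-0.22 ± 0.07) and Ahnak (-0.46 ± 0.14) were lower in females, and Vegfb (0.20 ± 0.06), Apln (0.23 ± 0.07), Heyl (0.45 ± 0.14) and Ackr1 (0.19 ± 0.06) higher, each past the threshold. For the 34 vascular genes, leaving out 1 mouse at a time gave between 0 and 7 past the threshold, namely 7 without FD female 2, 5 without CD female 2, 3 without FD male 1 and 0 without any 1 of the other 8 mice. The log2 fold changes themselves kept their sign in these 11 fits, from -0.37 to -0.20 for Abcb1a, from 0.20 to 0.29 for Egfl7 and from 0.14 to 0.19 for Bsg. The sexes also differed in library measures. The share of aligned reads outside annotated genes was between 8.95 and 11.03% in males and between 7.01 and 10.5% in females. Across 14298 genes that averaged 1 CPM or more and had a known transcript, the sex difference had Spearman's rho = 0.435 with the GC content and -0.463 with the length of the longest transcript, and across the 34 vascular genes 0.496 and -0.286 (descriptions, since genes are not independent replicates). The part of GC content and transcript length in the sex difference was not tested.

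**Figure D5:**
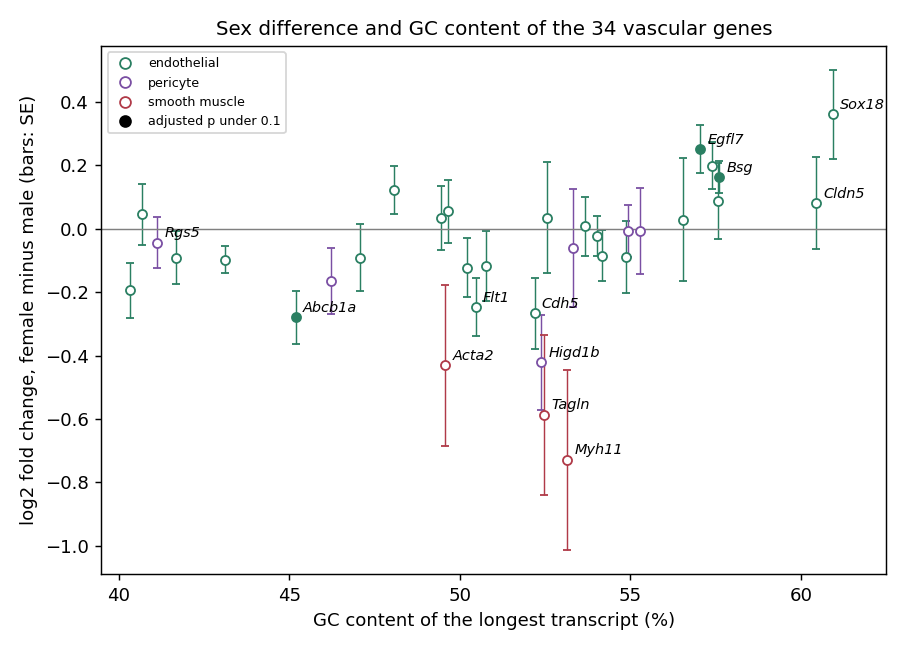
Fitted log2 fold change between female and male mice (y axis, bars for 1 SE) of the 34 genes by the GC content of their longest transcript (x axis, percent), with colours for the cell class and filled points for an adjusted p under 0.1. Egfl7, Bsg and Sox18 lie at the upper right, Abcb1a at the lower left, and the smooth muscle genes lie lowest, with rho = 0.496 over the 34 genes.

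Between FD and CD, the same measure was -0.294 with GC content and 0.277 with length over all these genes, and -0.0701 and 0.378 over the vascular genes. No vascular gene passed in the test of a diet by sex interaction, and none had an unadjusted p under 0.05 (edgeR), which 1.9% of all genes had. The smallest p of the 34 was that of Kdr, at 0.0757.

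The genes most like each vascular class were looked up among the other genes that averaged 1 CPM or more, by r with the class score over the 11 mice. For smooth muscle these were Sned1 (0.974), Atp10a (0.968), Myl9, the regulatory light chain of contractile myosin (0.967), Lmod1 (0.962), Svil (0.961), Lrrc75b (0.960), Adcy7 (0.947), Itprid2 (0.945), Arhgap29 (0.943) and Rbms1 (0.941). For pericytes they were Sned1 (0.977), Adgra2 (0.948), Thbs2 (0.937), Myl9 (0.930), Olfml2a (0.928), Col8a1 (0.926), Cgnl1 (0.926), Cavin1 (0.925), Slc7a11 (0.924) and Alx4 (0.921). For the endothelial class they were Lrrc32 (0.934), Tns1 (0.904), Adgra2 (0.904), Anxa4 (0.898), Notch3 (0.891), Pear1 (0.889), Cxcl12 (0.887), Pld1 (0.877), Esyt1 (0.876) and Kif13a (0.873). The pericyte and smooth muscle scores themselves had r = 0.942 and the endothelial score had r = 0.835 and 0.838 with them, so these lists are not independent of each other.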

How the data were processed

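Hippocampal RNA of 11 mice was sequenced as single-end reads, and the labels gave the group, sex and number of each mouse. The authors removed adapters and poor bases, ran STAR against mm10 (GRCm38), counted unique alignments per gene with featureCounts, and deposited raw counts per mouse. The annotation release and the use of strand are not given in the sources used here. The tables end in 5 summary lines of the form that HTSeq writes, although featureCounts is the counter named, and these were left out of library sizes. Symbols, positions and exon lengths came from GENCODE on GRCm38, which held 36345 (94.9%) of the 38293 identifiers.

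Tests were run with edgeR 4.0.16 in R 4.3.3 (TMM, 10 or more counts summed over mice, quasi-likelihood test, Benjamini-Hochberg adjustment, threshold 0.1 as in the study). The study's tool, DESeq2 (here 1.42.0), was an alternative. The SE is the size of the log2 fold change divided by the square root of F. Log2 CPM used a prior count of 2, and TPM used the length of all exons of a gene. Python 3.11.15 with pandas 2.3.3 was used for tables. The scripts were tested on simulated data. P-values measure the spread between these mice, and litters are not given in the labels. The diet was given to the dams, while the tests treat each mouse as a separate unit. The p-values between FD and CD may thus rest on fewer dams than mice. At the depths of the libraries, 3 counts are worth between 0.0675 and 0.2556 CPM, and such limits cover counting error only. No pair of libraries of a group agreed within sampling noise (chi-square per degree of freedom of at least 4.58).

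The vascular genes and all other lists were chosen with earlier results of these data known. Genes were named by a rule: in each member class the 3 with the smallest p between FD and CD, every member past the threshold or without overlap, the 5 with the smallest p between the sexes, and 2 genes of each other list. Other genes whose levels or correlations are named were chosen after their values were seen. Mice whose titles share a sex and a number were taken as pairs, since the deviations from the group means correlated in all 5 pairs (r from 0.307 to 0.540). Partners share their sex, and after removal of the sex means r ran from 0.00515 to 0.386. Mice of the same sex with other numbers had r from -0.0628 to 0.526, which overlaps the range of the pairs. Of the FD mice, 4 had their highest r with their own partner. The pairing is thus not clearly set apart from shared sex, and results with the replicate block carry this limit. Alternatives were the replicate block, RLE size factors, a sex covariate, other filters on counts, fits within a sex and fits without 1 mouse. Promoter sequences are from RefSeq on GRCm38.p6.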

Additional observations from a re-analysis of the deposited data

Results flagged for a closer look

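Among the 34 vascular genes and their 3 class sums, tested separately in the CD and the FD group, 3 of 74 cases had 1 mouse far from the rest of its group by Dixon's criterion, which chance alone meets in about 1 of 20 groups. All 3 concern CD male 2. Its Tie1 level was 12.34 CPM, while the other CD mice lay between 9.80 and 10.6 CPM. Its Tagln level was 12.92 CPM, beside 5.59 to 8.02 CPM in the others. Its summed smooth muscle level was 54.23 CPM, beside 20.8 to 33.3 CPM. That sum contains Tagln, so these cases are not separate observations. This library also had the largest share of aligned reads outside annotated genes of all mice, 11.03%. Without it, as with it, none of the vascular genes passed the threshold between FD and CD. The cause was not tested.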

How the results depend on the processing

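Under every alternative run, none of the 34 vascular genes passed the threshold between FD and CD, the replicate block included. Among the other lists the block added calls for Ogn, Ttr and Clic6 and changed no other call. Over all genes, 14 passed, in place of which 25 did with the replicate block, 1 with at least 10 counts in every mouse, 1 in female mice alone and 2 in male mice alone, and leaving out 1 mouse gave between 3 and 12. Between the sexes, 3 vascular genes passed, in place of which 5 did with DESeq2 and 9 with no count filter, and leaving out 1 mouse gave between 0 and 7. The class medians between FD and CD, 0.08, 0.10 and 0.34, moved by less than the spread between mice under each alternative, with ranges over the mice left out of 0.04 to 0.11, 0.06 to 0.14 and -0.0045 to 0.55. That spread is a wide limit and does not make the medians stable. The smooth muscle median of 0.34 was lost without FD male 2 (-0.0045). The pericyte median was 0.21 in female mice alone and 0.06 in male mice alone. Signs changed in male mice alone for Tie1 (-0.0185), Kdr (-0.0965), Sox17 (0.0149) and Pdgfrb (-0.00326), and in female mice alone for Sox18 (-0.0532). With 1 mouse left out, the log2 fold change ran from -0.00908 to 0.167 for Sox18, from -0.19 to 0.0115 for Sox17, from -0.00944 to 0.152 for Itm2a, from -0.0364 to 0.204 for Vtn, from -0.0045 to 0.549 for Tagln and from -0.0654 to 0.418 for Acta2. The r of Rgs5 and Higd1b changed from -0.0028 to 0.0485 with RLE size factors. The causes were not tested. Genes of few counts, such as Higd1b, are limited by depth.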
